A study of Homo sapiens with 18 samples.

Results

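Untreated SP100 knockout keratinocytes were compared with untreated wild-type keratinocytes, using the 3 knockout and 3 wild-type libraries labelled 0 h, which are 6 of the 18 libraries of the series. The cells were NIKS, an established line of normal human keratinocytes that became immortal in culture. The series measured polyadenylated RNA in both genotypes before and after interferon alpha 2a (25 ng/mL for 12 or 48 h), with 3 biological replicates in each of the 6 groups. Its title concerns the Sp100A isoform and the histone chaperone HIRA at PML nuclear bodies. Libraries of both genotypes shared their culture conditions: a feeder layer of irradiated J2/3T3 mouse fibroblasts and a serum medium that held epidermal growth factor, insulin, hydrocortisone and cholera toxin. The untreated groups received no interferon. Each genotype was 1 line, named KO5 for the knockout and Vec2 for the wild type in the deposited table, so that effects of losing SP100 and of anything else that sets these lines apart cannot be told apart. The labels call the replicates biological but do not say how they were separated, so the p-values measure the spread between these libraries.

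SP100 is a resident protein of PML nuclear bodies, small protein assemblies in the nucleus that also hold PML, DAXX and, under some conditions, the HIRA complex. Its isoforms carry domains that bind heterochromatin proteins and chromatin, and the bodies are known for restricting incoming viral DNA. SP100 is itself induced by interferon, which acts through receptors, JAK kinases and a STAT and IRF9 complex on the promoters of interferon-stimulated genes. Keratinocytes keep part of that program on without added interferon.

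SP100 was examined first, since it was the targeted gene. Its level, in RPKM, a read density corrected for gene length and library size, was 30.14, 31.91 and 27.90 in the 3 wild-type libraries. The knockout libraries held 15.97, 14.22 and 15.21 RPKM. All knockout libraries were thus below all wild-type libraries, at 50.5% of the wild-type mean, a change of -0.94 on the log2(RPKM + 1) scale with an SE of 0.059 (limma, adjusted p = 4.92e-08). The table gives 1 value per gene, so it shows neither which exons the remaining reads came from nor whether a protein was made. The relatives of SP100 that lie beside it had similar means in both genotypes: SP110 averaged 7.61 RPKM in wild type and 7.76 in knockout, and SP140L 5.16 and 5.27, with log2 changes of 0.02 and 0.03 (limma, adjusted p = 0.901 and 0.935).

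The libraries held marker genes of keratinocytes at high levels in both genotypes. The summed level of the 12 keratinocyte markers was 21129 to 22102 RPKM in wild type and 20325 to 21179 in knockout. KRT5, the basal keratin, averaged 7849 and 7651 RPKM, and TP63, the master regulator of stratified epithelium, 86.5 and 83.2 RPKM. Of the 14 fibroblast markers, 5 were tested and 0 called, where 4.89% of all genes tested were called. With 5 genes this cannot show equal levels, and 4 of the 5 changes were below 0. The sum of those in the table was 45.8 to 52.0 RPKM in wild type and 43.3 to 44.3 in knockout. Melanocyte markers summed to 1.8 to 2.34 and 1.0 to 1.86 RPKM, leukocyte markers to 24.1 to 25.3 and 19.6 to 21.1 RPKM. In the leukocyte list CD68, a lysosomal glycoprotein, was called lower, at -0.35 on the log2 scale. In bulk RNA, fewer cells of a type and less RNA per cell cannot be told apart. Depth relative to the mean library, recovered from the lowest values, was 0.853 to 1.255 over the 6 libraries. Correlations across genes, which are not independent replicates, were 0.9853 to 0.9894 within a genotype and 0.9825 to 0.9871 between genotypes.

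Knockout and wild type differed in 650 of 13280 genes tested, which is 4.89% (limma, adjusted p under 0.05, the threshold for a gene to be termed called). Of these, 375 were higher in the knockout (2.82% of genes tested) and 275 lower (2.07%). Most differences were small on the log2(RPKM + 1) scale: 459 of the 650 (70.6%) were under 1.5-fold, and the median size was 0.38. A change of at least 2-fold in RPKM + 1 was reached by 19 higher and 31 lower genes, together 0.377% of genes tested. These limits understate changes of low genes in RPKM itself. With a pseudocount of 0.1 the 2-fold count was 107. The groups did not overlap for 649 of the 650, as they did not for 23.6% of all genes tested. The median change of all genes was 0.02. Scaling by median of ratios gave 276 higher and 313 lower genes, so the share of higher calls was 57.7% in the first case and 46.9% in the second. A fit of the 6 untreated libraries alone called 306 genes. Leaving out wild-type replicate 2 or 3 gave 390 or 418 genes, and leaving out knockout replicate 1 or 2 gave 402 or 397.

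**Figure D1:**
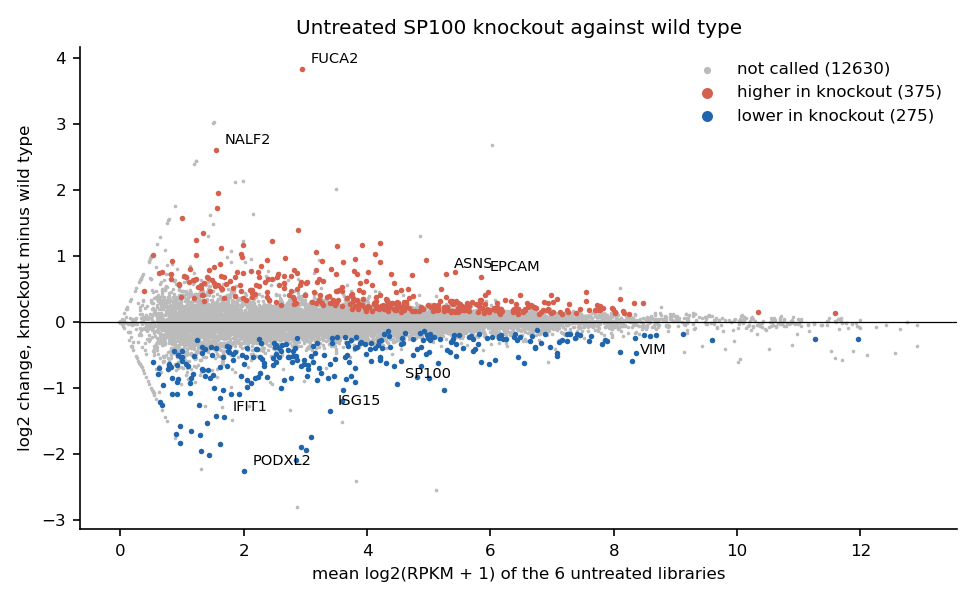
Change between untreated knockout and wild type (vertical axis, log2 of RPKM + 1) against the mean level over the 6 untreated libraries (horizontal axis, same scale), 1 point per gene tested. The 375 higher and 275 lower called genes are coloured, and most lie within 1 unit of 0, with FUCA2 at 3.84 and PODXL2 at -2.26 at the extremes.

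Several interferon-stimulated genes were among the sharpest falls. IFIT1, IFI44, ISG15, OASL, HERC5 and IFIT2 were 6 of the 31 genes lower by at least 2-fold in RPKM + 1. Lists of antiviral effectors, ISG15 conjugation genes and nucleic acid sensors named 49 genes, of which 47 were tested. Of these, 16 were lower in the knockout (34.0%, against 2.07% of all genes) and 2 were higher (4.26%, against 2.82%). The median over the 47 was -0.04, beside 0.02 for all genes, and the 16 lower genes ranged from -0.22 for UBE2L6 to -1.44 for IFIT1. A fit of the untreated libraries alone called 10 of them lower. Some of these genes passed the filter only through the interferon-treated libraries: MX2 averaged 0.00667 RPKM in untreated wild type and IFI44L 0.04, levels at which a fall could not be seen. Among the 27 genes under 5 RPKM in untreated wild type, 8 were lower, and among the 20 at 5 RPKM or more, 8 were lower.

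Promoters are shown for 7 of these genes, 5 that fell and 2 that were not called, to show what the groups share. Each line gives the 130 bases before the start of the gene in RefSeq on GRCh38.p14, 5′ to 3′ on the strand of the gene. Capitals mark every match on either strand to the core of the interferon-stimulated response element, which is GAAA, any 2 bases and GAAA again (read as TTTC, any 2 bases and TTTC on the other strand). Overlapping matches run together. The windows are IFIT1, chr10:89392493-89392622 (+); IFI44, chr1:78649659-78649788 (+); ISG15, chr1:1013367-1013496 (+); HERC5, chr4:88456989-88457118 (+); IFIT3, chr10:89327867-89327996 (+); TRIM5, chr11:5685075-5685204 (-); and OAS3, chr12:112938344-112938473 (+).
IFIT1: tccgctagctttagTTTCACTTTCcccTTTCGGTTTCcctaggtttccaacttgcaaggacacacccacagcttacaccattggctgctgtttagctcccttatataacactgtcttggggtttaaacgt
IFI44: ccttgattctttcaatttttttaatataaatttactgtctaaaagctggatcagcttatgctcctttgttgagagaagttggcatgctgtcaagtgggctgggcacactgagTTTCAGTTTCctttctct
ISG15: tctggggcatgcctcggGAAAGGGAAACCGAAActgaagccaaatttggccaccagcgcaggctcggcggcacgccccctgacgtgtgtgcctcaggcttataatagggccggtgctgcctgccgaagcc
HERC5: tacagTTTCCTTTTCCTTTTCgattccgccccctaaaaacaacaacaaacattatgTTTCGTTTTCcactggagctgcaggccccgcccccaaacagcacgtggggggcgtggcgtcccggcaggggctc
IFIT3: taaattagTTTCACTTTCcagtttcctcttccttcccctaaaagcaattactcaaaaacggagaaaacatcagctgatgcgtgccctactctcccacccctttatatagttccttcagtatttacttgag
TRIM5: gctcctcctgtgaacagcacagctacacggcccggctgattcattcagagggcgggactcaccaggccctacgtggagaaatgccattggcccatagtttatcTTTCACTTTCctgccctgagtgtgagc
OAS3: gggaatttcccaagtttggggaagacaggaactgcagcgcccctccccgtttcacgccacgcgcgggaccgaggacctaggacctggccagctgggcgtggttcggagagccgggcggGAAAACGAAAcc

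The match occurred within 250 bases upstream for 9 of the 11 lower genes with a promoter window (81.8%) and for 14 of the 25 uncalled listed genes with one (56.0%). Over all genes with a window it occurred for 3.71%. The match was thus present in promoters of genes that fell and of genes that were not called. TRIM5, a restriction factor of retroviruses, was at 17.99, 19.51 and 17.83 RPKM in wild type and 18.52, 17.81 and 17.39 in knockout, so its groups overlapped (-0.04, limma, adjusted p = 0.702).

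The effectors that fell furthest were IFIT1, IFI44 and OASL. IFIT1, which binds foreign RNA ends, was at 5.15, 3.86 and 3.94 RPKM in wild type and at 0.81, 0.83 and 1.22 in knockout. IFI44, an interferon-induced cytoplasmic protein, was at 3.39, 4.66 and 3.47 RPKM in wild type and 0.74, 1.19 and 0.50 in knockout. OASL, a relative of the OAS enzymes that aids RNA sensing, was at 3.25, 2.49 and 2.54 RPKM in wild type and 0.56, 0.52 and 0.64 in knockout. For all 3 genes the highest knockout library was below the lowest wild-type library, and the knockout mean was 22.1%, 21.1% and 20.8% of the wild-type mean. The log2 changes were -1.44 (SE 0.0794), -1.43 (SE 0.11) and -1.25 (SE 0.0645), with limma adjusted p of 1.43e-08, 5.95e-07 and 7.4e-09.

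IFIT2 and IFIT3, which work in a complex with IFIT1, fell by less. IFIT2 was at 3.51, 3.70 and 3.35 RPKM in wild type and 1.3, 1.07 and 1.27 in knockout, and IFIT3 at 5.82, 5.07 and 4.41 RPKM in wild type and 2.39, 2.38 and 2.33 in knockout. Neither gene's groups overlapped, and the changes were -1.03 and -0.85 (limma, adjusted p = 1.77e-06 and 3.04e-07). DDX60, a helicase that assists RNA sensing, went from 9.88 ± 1.42 RPKM (SD, n = 3) to 5.24 ± 1.22, a change of -0.81 (limma, adjusted p = 0.000169). The membrane proteins IFITM1, IFITM2 and IFITM3, which block virus entry, are far more abundant: IFITM3 was at 156.81, 163.59 and 163.72 RPKM in wild type and 115.99, 110.97 and 110.27 in knockout. Their changes were -0.52, -0.57 and -0.52. Genes of the IFIT and IFITM families resemble each other, and how reads that fit several of them were counted is not stated. IFI6 was lower (-0.28 on the log2 scale), a call lost without knockout replicate 1 or 2 or wild-type replicate 1 or 2 (-0.31 to -0.18, limma, adjusted p = 0.0521 to 0.16).

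The 2 genes that rose were OAS2 and USP18. OAS2, which makes the second messenger that activates RNase L, was at 6.82, 6.30 and 7.63 RPKM in wild type and 12.35, 10.59 and 10.69 in knockout, a change of 0.63 (limma, adjusted p = 8.53e-06). USP18, the protease that removes ISG15 and damps interferon signalling, was at 1.28, 1.36 and 1.26 RPKM in wild type and 2.03, 1.82 and 1.75 in knockout, a change of 0.32 (limma, adjusted p = 0.000629). Both genes were higher in every knockout library than in every wild-type library. The USP18 call was lost in a fit of the untreated libraries alone. OAS1 and OAS3, which sit beside OAS2 on chromosome 12, were not called. OAS1 was at 3.65, 3.56 and 2.35 RPKM in wild type and 2.30, 3.68 and 5.45 in knockout, so its groups overlapped. OAS3 was at 11.04, 11.66 and 11.57 RPKM in wild type and 12.18, 11.73 and 11.78 in knockout, with a change of 0.05 (limma, adjusted p = 0.416). MX1, a dynamin-like antiviral GTPase, was near the floor in both genotypes at 0.317 and 0.223 RPKM.

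In the ISG15 conjugation list, 3 of 7 genes fell and 1, USP18, rose (57.1% called, against 4.89% of all genes). The median was -0.22. ISG15, the ubiquitin-like modifier, was at 18.49, 15.71 and 13.59 RPKM in wild type and 4.46, 5.68 and 6.77 in knockout. HERC5, the ligase that attaches ISG15 to new proteins, was at 2.37, 1.98 and 2.23 RPKM in wild type and 0.57, 0.58 and 0.40 in knockout. The knockout means were 35.4% and 23.6% of wild type without overlap, and the changes were -1.36 (SE 0.118) and -1.07 (SE 0.0828), with limma adjusted p of 2.16e-06 and 5.95e-07. The conjugating enzyme UBE2L6 was lower (-0.22 on the log2 scale), a call lost without knockout replicate 3 or any single wild-type library (-0.23 to -0.15, limma, adjusted p = 0.0573 to 0.0809).

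Of the 9 nucleic acid sensors tested, 3 fell and 0 rose (33.3% called, against 4.89% of all genes), with a median of -0.02. RIGI, a sensor of viral RNA, went from 4.36 ± 0.419 to 3.02 ± 0.244 RPKM (SD, n = 3), a change of -0.42 (limma, adjusted p = 0.000198). DHX58, a regulator of RIGI signalling, was at 1.04, 1.19 and 0.83 RPKM in wild type and 0.09, 0.18 and 0.25 in knockout, a change of -0.78 (limma, adjusted p = 0.000691). STING1, the adaptor of DNA sensing, was lower (-0.24 on the log2 scale), but this call was lost on leaving out any 1 library except knockout replicate 3 (limma, adjusted p = 0.065 to 0.132). IFIH1, the other main RNA sensor of this family, was at 2.61 RPKM in wild type and 3.14 in knockout and was not called (0.20, limma, adjusted p = 0.0647).

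Of 20 ligands, receptors and transducers upstream of these genes, 2 were lower and 1 higher (15.0% called, against 4.89% of all genes), with a median of 0.03. IRF9, the DNA-binding subunit of the interferon-activated complex, was at 5.81, 6.31 and 6.24 RPKM in wild type and 4.81, 4.38 and 2.84 in knockout, a change of -0.53 (limma, adjusted p = 0.0109). Without knockout replicate 3 the change was -0.35 (limma, adjusted p = 0.0159), and a fit of the untreated libraries alone did not call it (limma, adjusted p = 0.161). Its partner STAT2 averaged 10.8 RPKM in wild type and 10.5 in knockout and was not called (-0.03, limma, adjusted p = 0.853). The receptor chains IFNAR1 and IFNAR2 averaged 25.9 and 11.4 RPKM in wild type and 30.2 and 11.8 in knockout and were not called (limma, adjusted p = 0.145 and 0.848). STAT3 was lower (-0.14 on the log2 scale) and IFNGR1, a receptor chain for interferon gamma, higher by 0.22. The STAT3 call was lost on leaving out any 1 library except knockout replicate 3, and the IFNGR1 call without knockout replicate 1 or 3 or wild-type replicate 2 or 3 (limma, adjusted p of 0.0565 to 0.139 and 0.0936 to 0.191). IFNE, the epithelial type I interferon, was under 0.6 RPKM in all 6 libraries and did not pass the filter. IFNK, IFNB1 and IFNL1 were not analysed here.

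Antigen presentation by MHC class I showed 3 of 18 genes lower and 0 higher (16.7% called, against 4.89% of all genes). The median was -0.06. The lower genes were PSMB9 (-0.44) and PSMB8 (-0.29), subunits of the immunoproteasome, and HLA-B (-0.39). HLA-B went from 15.1 ± 1.87 to 11.3 ± 0.383 RPKM (SD, n = 3). HLA genes are near-identical in parts, so their separate values are uncertain. The PSMB8 call was lost without knockout replicate 2 or 3 or wild-type replicate 1 or 3 (-0.29 to -0.20, limma, adjusted p = 0.105 to 0.166).

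**Figure D2:**
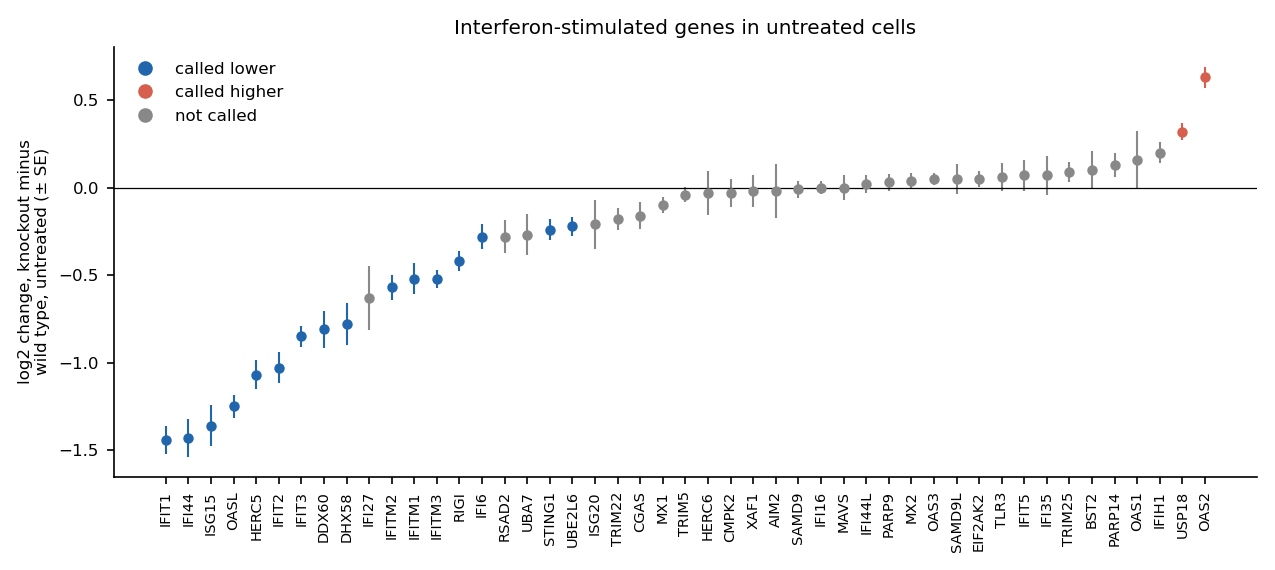
Log2 change, knockout minus wild type, in untreated cells for the listed interferon-stimulated genes tested, ordered by change, with error bars of 1 SE from limma. The genes run from IFIT1 at -1.44 to OAS2 at 0.63, with 16 called lower, 2 called higher and the others grey.

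The 12 genes with the largest rise and the 12 with the largest fall were taken among called genes with a symbol whose groups did not overlap. Of these 24 and SP100, 23 kept their call in every alternative that tested them: 13 alternatives each, or 12 for the 13 genes that a filter at a mean of 5 RPKM removed. Most of them lie outside the interferon program, and IFIT1 is the only listed interferon-stimulated gene among them.

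FUCA2, a secreted fucosidase that trims fucose from glycoproteins, had the largest change of any called gene. It was at 0.98, 1.20 and 0.97 RPKM in wild type and 27.18, 29.25 and 28.51 in knockout, a 27.0-fold rise of the mean and 3.84 on the log2 scale (SE 0.0887, limma, adjusted p = 1.45e-13). No other of the 20 lysosomal glycosidases and sulfatases tested was called, and the list's median was -0.02. FUCA1, the lysosomal fucosidase, averaged 4.28 RPKM in wild type and 4.83 in knockout. NALF2, an auxiliary factor of the sodium leak channel NALCN, was at 0.14, 0.18 and 0.26 RPKM in wild type and 6.26, 6.28 and 6.29 in knockout, a change of 2.61 (limma, adjusted p = 9.57e-12). Both genes were at or under 1.2 RPKM in all wild-type libraries and above 6 RPKM in all knockout libraries.

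Other genes rose from low levels. SLCO1B3, an organic anion transporter best known in liver, went from 0.167 ± 0.0808 to 2.48 ± 0.273 RPKM (SD, n = 3), a change of 1.57. ARMCX1, a mitochondrial protein gene on the X chromosome, went from 0.53 ± 0.128 to 2.65 ± 0.441 RPKM, and MPP1, a membrane scaffold, from 1.11 ± 0.262 to 3.56 ± 0.169 RPKM. LIMCH1, a regulator of non-muscle myosin, went from 1.67 ± 0.229 to 4.96 ± 0.137 RPKM. The changes of the last 3 were 1.25, 1.12 and 1.16.

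Genes already expressed in wild type also rose. TAF7, a subunit of the general transcription factor TFIID, went from 9.12, 8.32 and 9.93 RPKM to 21.34, 21.85 and 21.78 (1.17, limma, adjusted p = 7.4e-09). OSBPL5, a lipid transfer protein, went from 12.21, 11.06 and 10.59 RPKM to 27.90, 23.99 and 29.83 (1.20). CA9, a membrane carbonic anhydrase known as a target of hypoxia signalling, went from 3.51, 2.99 and 4.13 RPKM to 11.70, 12.81 and 8.65 (1.40). In each of these the knockout libraries lay above all wild-type libraries, which the choice of genes required. THBD, the thrombin receptor thrombomodulin, rose from 2.62 ± 0.121 to 7.46 ± 0.55 RPKM (SD, n = 3) and UCA1, a long noncoding RNA, from 6.71 ± 0.466 to 16.1 ± 1.13 RPKM, changes of 1.22 and 1.15. DNAJC25-GNG10, a readthrough transcript that overlaps its component genes, was at 0.78, 0.32 and 0.86 RPKM in wild type and 5.73, 6.12 and 2.30 in knockout. Its call (1.73, limma, adjusted p = 0.0274) was lost on leaving out any 1 library except knockout replicate 3 (1.53 to 1.82, limma, adjusted p = 0.0597 to 0.118).

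Among the falls, PODXL2, a cell-surface sialomucin related to podocalyxin, was the steepest. It was at 7.95, 7.82 and 7.72 RPKM in wild type and 0.97, 0.82 and 0.75 in knockout, 10.8% of the wild-type mean (-2.26, SE 0.103, limma, adjusted p = 1.55e-09). GPR50, an orphan receptor related to melatonin receptors, fell from 4.45 ± 0.564 to 0.35 ± 0.115 RPKM (SD, n = 3), and CDH8, a neural-type cadherin, from 4.04 ± 1.55 to 0.263 ± 0.189 RPKM. The changes were -2.01 and -1.95. All 3 genes encode surface proteins, and their knockout libraries did not reach the lowest wild-type library, which the choice of genes required.

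C3orf14, of which little is known, fell from 14.7 ± 1.29 to 3.12 ± 0.535 RPKM (SD, n = 3), and TSTD1, a sulfurtransferase-like gene, from 14.7 ± 2.4 to 3.71 ± 0.625 RPKM. HACD4, an enzyme of very long chain fatty acid synthesis, fell from 4.81 ± 0.269 to 0.617 ± 0.0651 RPKM, MID2, a ubiquitin ligase that binds microtubules, from 2.38 ± 0.295 to 0.04 ± 0.01 RPKM, and FAM20C, the Golgi kinase of secreted proteins, from 2.93 ± 0.48 to 0.247 ± 0.155 RPKM. Their changes were -1.94, -1.74, -1.85, -1.70 and -1.66. MID2 was near 0 in all 3 knockout libraries. PHLDA1-AS1, an antisense RNA, was at 12.01, 16.36 and 12.83 RPKM in wild type and 1.67, 1.28 and 9.07 in knockout, so that knockout replicate 3 stood far above its fellows. Whether the counting used strand is not stated, so its reads cannot be told from those of PHLDA1. The call (-1.89, limma, adjusted p = 0.0349) was lost on leaving out any 1 library except knockout replicate 3 (-1.97 to -1.50, limma, adjusted p = 0.0699 to 0.165).

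CSAG1, a cancer-testis gene on the X chromosome, was at 2.16, 2.82 and 3.23 RPKM in wild type and was listed at 0.12, 0 and 0 in knockout, a change of -1.84. MAGEA12, the other member of the cancer-testis list that was tested, was at 1.10, 1.45 and 1.57 RPKM in wild type and 0, 0.03 and 0.04 in knockout, a change of -1.21 (limma, adjusted p = 8.98e-05). The list named 28 genes, of which 2 were tested, and both fell, where 2.07% of all genes tested were lower. In untreated cells both reached 1 RPKM in the wild-type libraries alone, so they passed the filter through the group where they were higher. The count therefore says nothing about the list as a whole. Cancer-testis genes are normally kept silent outside the germ line and belong to families of near-identical copies, so their reads are uncertain.

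**Figure D3:**
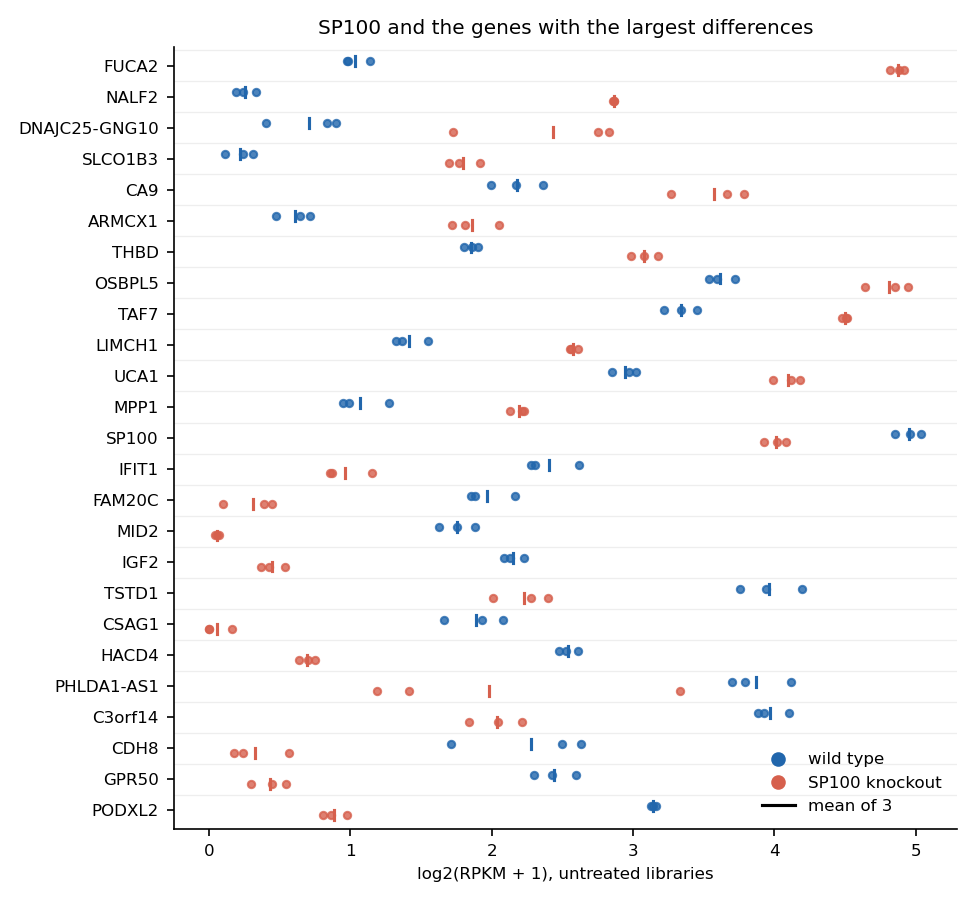
Level of SP100 and of the 24 genes with the largest differences in each untreated library, as log2(RPKM + 1), with wild-type points in blue, knockout points in red and a bar at the mean of 3. The 24 genes were chosen for groups that do not overlap, so their points separate by genotype by choice. PHLDA1-AS1 and DNAJC25-GNG10 have the widest spread between knockout libraries.

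IGF2 and H19, a growth factor gene and the noncoding RNA gene beside it that share an imprinted domain on chromosome 11, were both lower. IGF2 was at 3.69, 3.37 and 3.24 RPKM in wild type and 0.34, 0.29 and 0.45 in knockout, 10.5% of the wild-type mean. H19 was at 44.41, 37.90 and 45.03 RPKM in wild type and 27.60, 22.26 and 19.69 in knockout, 54.6% of the wild-type mean. Neither gene's groups overlapped, and the changes were -1.71 (SE 0.108) and -0.85 (SE 0.112), with limma adjusted p of 5.59e-08 and 0.000169. IGF2 overlaps another annotated gene. In the insulin-like growth factor list of 13 tested genes, IRS1, a receptor substrate, was also lower (-0.37) and IGFBP2, a binding protein, higher (0.41), while the receptors IGF1R and IGF2R were not called.

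Several genes tied to mesenchymal character and matrix turnover fell. In a list of 22 epithelial and mesenchymal-type genes tested, 6 were lower and 3 higher (40.9% called, against 4.89% of all genes). The median was -0.07. VIM, the mesenchymal intermediate filament, was at 376.46, 387.55 and 387.75 RPKM in wild type and 258.08, 253.59 and 254.70 in knockout, 66.5% of the wild-type mean (-0.59, SE 0.0348, limma, adjusted p = 2.91e-08). MMP2, a gelatinase, was at 16.39, 18.10 and 17.28 RPKM in wild type and 7.84, 6.18 and 6.92 in knockout (-1.20, limma, adjusted p = 2.1e-05). The collagenase MMP1 changed by -0.60, fibronectin FN1 by -0.46 and the transcription factor SNAI2 by -0.26. MMP14, which activates MMP2, was lower (-0.19 on the log2 scale), a call lost without knockout replicate 1 or 2 or wild-type replicate 2 or 3 (limma, adjusted p = 0.0508 to 0.118).

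The 3 that rose in that list were EPCAM, an epithelial adhesion molecule, CLDN1, a tight junction protein, and LOXL2, a matrix cross-linking oxidase usually counted as mesenchymal. EPCAM was at 45.69, 41.04 and 47.13 RPKM in wild type and 73.92, 68.11 and 73.75 in knockout (0.68, limma, adjusted p = 4.06e-06). CLDN1 and LOXL2 changed by 0.53 and 0.69. E-cadherin, CDH1, averaged 110.0 and 114.0 RPKM and was not called (0.05, limma, adjusted p = 0.637). Of the fibroblast markers, which share part of this program, 0 of 5 tested were called by limma, with 1 at an unadjusted p under 0.05 (18.1% of all genes tested). Their changes were -0.50 for S100A4, -0.12 for FBLN1, -0.10 for COL1A1, -0.05 for ACTA2 and 0.05 for FAP, so 4 of 5 were below 0. S100A4 was at 10.41, 9.40 and 12.16 RPKM in wild type and 6.26, 9.90 and 5.99 in knockout, and its groups overlapped. The part of these markers in the fall of the mesenchymal-type genes was not tested.

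The TGF-beta and activin list had 3 of 26 genes lower and 0 higher (11.5% called, against 4.89% of all genes). The median was -0.08. INHBA, the activin A subunit, went from 12.2 ± 1.07 to 7.47 ± 0.515 RPKM (SD, n = 3), a change of -0.64 (limma, adjusted p = 4.04e-05), and TGFBI, a matrix protein induced by TGF-beta, from 321.0 ± 13.1 to 233.0 ± 8.68 RPKM, a change of -0.46 (limma, adjusted p = 0.000193). Follistatin, FST, which binds activin, was lower (-0.40 on the log2 scale). The FST call was lost without knockout replicate 1 or wild-type replicate 2 or 3 (-0.36 to -0.34, limma, adjusted p = 0.0996 to 0.113). An activin subunit and its inhibitor thus had the same sign.

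Cholesterol synthesis had the most members that rose of the lists used here: 9 of 22 genes were higher and 0 lower. That is 40.9% called, against 4.89% of all genes. The median was 0.15, and 19 of 22 were above 0. HMGCS1, an early synthase of the pathway, was at 15.77, 17.31 and 16.61 RPKM in wild type and 25.89, 25.45 and 25.08 in knockout (0.59, limma, adjusted p = 0.00101). MSMO1, a sterol oxidase, went from 36.8 ± 0.98 to 45.2 ± 1.28 RPKM (SD, n = 3), a change of 0.29. Neither gene's groups overlapped, and HMGCS1 rose 1.54-fold. Other members that rose were INSIG1 (0.40), CYP51A1 (0.31), FDFT1 (0.30), IDI1 (0.25) and SQLE (0.20).

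The cholesterol calls were among the less stable ones. A fit of the untreated libraries alone called 3 of the 9, and leaving out knockout replicate 3 left 5. Of the members named, leaving out wild-type replicate 2 ended the call of IDI1 (0.21, limma, adjusted p = 0.0959). Leaving out knockout replicate 3 ended those of IDI1 (0.24) and INSIG1 (0.28), and leaving out wild-type replicate 3 those of INSIG1 (0.38) and SQLE (0.19). Without wild-type replicate 1 INSIG1 was at 0.36, and without knockout replicate 2 IDI1 was at 0.26, both uncalled.

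In the ATF4 and unfolded protein response list, 5 of 20 were higher and 0 lower (25.0% called, against 4.89% of all genes). The median was 0.13, with 16 genes above 0 and 4 below. Changes ran from -0.89 to 0.73, and the lowest was not called. ASNS, asparagine synthetase, was at 31.83, 27.34 and 28.57 RPKM in wild type and 49.68, 48.62 and 49.00 in knockout (0.73, SE 0.0582, limma, adjusted p = 8.43e-07). PSAT1 and PHGDH, enzymes of serine synthesis, went from 52.0 ± 1.98 and 51.2 ± 0.956 RPKM to 72.0 ± 0.699 and 68.2 ± 2.56 RPKM (SD, n = 3), changes of 0.46 and 0.41 (limma, adjusted p = 8.32e-06 and 6.68e-05). The cystine transporter SLC7A11 rose by 0.47 and the pseudokinase TRIB3 by 0.27. The TRIB3 call was lost on leaving out any 1 library except knockout replicate 2 (0.18 to 0.30, limma, adjusted p = 0.0548 to 0.14). ATF4 itself averaged 238.0 and 257.0 RPKM, and its targets DDIT3 and CHAC1 averaged 4.81 and 2.74 RPKM in wild type and 5.65 and 3.66 in knockout. None of those 3 was called (limma, adjusted p = 0.147, 0.454 and 0.245).

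Keratinocyte lists held calls in both directions. In the basal and matrix adhesion list 3 of 20 genes were called (15.0%, against 4.89% of all genes): LAMB3, a laminin 332 chain, was lower (-0.37 on the log2 scale), COL17A1, a hemidesmosomal collagen, was also lower, at -0.20, and the fibronectin receptor chain ITGA5 was higher by 0.23. The list's median was -0.07. The ITGA5 call was lost on leaving out any 1 library except knockout replicate 1 (0.18 to 0.25, limma, adjusted p = 0.0675 to 0.14). In the differentiation list of 22, 3 genes were lower and 2 higher (22.7% called), with a median of 0.04. SPRR1A, a cornified envelope precursor, fell from 13.0 ± 2.74 to 6.67 ± 0.604 RPKM (SD, n = 3), a change of -0.85 (limma, adjusted p = 0.00357), and KLK5, a protease of skin shedding, rose from 29.8 ± 0.897 to 42.7 ± 0.846 RPKM, a change of 0.50 (limma, adjusted p = 0.00172). The calprotectin subunits S100A8 and S100A9 were lower (-0.40 and -0.28 on the log2 scale), and the desmosomal cadherin DSC2 higher by 0.21. These 3 calls were unstable: S100A8 was lost on leaving out any 1 library except wild-type replicate 3, S100A9 without replicate 1 of either genotype, and DSC2 without knockout replicate 1 or 2 or wild-type replicate 2 or 3 (limma, adjusted p of 0.0633 to 0.107, 0.0514 to 0.065 and 0.0768 to 0.128). Early differentiation genes KRT10 and IVL changed by 0.05 and 0.15 and were not called. Among the keratinocyte markers the desmoglein DSG3 was higher by 0.29 and SFN lower (-0.27 on the log2 scale).

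Of 20 EGFR pathway genes 2 were higher and 1 lower (15.0% called, against 4.89% of all genes). EPGN, an EGFR ligand, rose from 2.45, 3.51 and 2.39 RPKM to 4.45, 7.65 and 6.99 (0.95, limma, adjusted p = 0.00375). EGFR was higher by 0.18 and the ligand EREG lower (-0.36 on the log2 scale), so 2 ligands of the same receptor had opposite signs. The median was -0.02. The EGFR call was lost without knockout replicate 1 or wild-type replicate 2, and the EREG call without knockout replicate 1 or 2 or wild-type replicate 1 or 2 (limma, adjusted p of 0.0849 to 0.0888 and 0.0678 to 0.0923). Of 20 inflammatory genes, IL1B alone was called (5.0%), higher by 0.31, with a list median of 0.01, and that call was lost without replicate 3 of either genotype (0.26 to 0.28, limma, adjusted p = 0.0512 to 0.0612).

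The cell cycle lists were called at 0.0% and 10.0% and the p53 list at 10.0%, against 4.89% of all genes. Of 20 DNA replication genes 0 were called by limma, with 2 at an unadjusted p under 0.05 (18.1% of all genes tested) and a median of 0.03. Of 20 mitotic genes, BUB1, a spindle checkpoint kinase, was higher by 0.19 and the cyclin CCNA2 by 0.14, with a median of 0.06. The CCNA2 call was lost in all 13 alternatives and the BUB1 call without knockout replicate 2 or wild-type replicate 2 or 3 (limma, adjusted p of 0.056 to 0.0767). Of 20 p53 targets, 19 were below 0, with a median of -0.12, yet 2 were called: PHLDA3, an AKT inhibitor, at -0.27 and CDKN1A, the p21 inhibitor of cell cycle kinases, at -0.18. CDKN1A went from 160.0 ± 5.44 to 142.0 ± 8.24 RPKM (SD, n = 3). The PHLDA3 call was lost without knockout replicate 1 or 2 or wild-type replicate 1, and the CDKN1A call without knockout replicate 2 or any single wild-type library (limma, adjusted p of 0.0553 to 0.0614 and 0.0629 to 0.166).

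Of 17 PML nuclear body and HIRA chaperone genes 0 passed by limma, where 4.89% of all genes did. An unadjusted limma p under 0.05 was reached by 2 of them, and by 18.1% of all genes tested. The list's median was 0.02. PML, the scaffold of the bodies, was at 29.44, 28.57 and 28.71 RPKM in wild type and 24.36, 24.77 and 25.70 in knockout. Its groups did not overlap, but the change of -0.21 missed the threshold (limma, adjusted p = 0.0742). DAXX, the H3.3 chaperone partner, averaged 27.9 and 29.3 RPKM and HIRA 15.1 and 14.8 RPKM. Of 15 genes of HP1 and H3K9 methylation, the HP1 genes CBX3 and CBX5 were higher, by 0.18 and 0.17. That is 13.3% called, against 4.89% of all genes, and the list's median was 0.0. The CBX3 call was lost without replicate 2 of either genotype, and the CBX5 call on leaving out any 1 library except knockout replicate 3 (limma, adjusted p of 0.0533 to 0.0601 and 0.0671 to 0.151).

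HOX genes, which record positional identity, gave 4 of 17 tested genes higher and 0 lower (23.5% called, against 4.89% of all genes). The median was -0.04. HOXD11 was at 4.28, 4.48 and 4.24 RPKM in wild type and 7.11, 9.38 and 8.40 in knockout, and its neighbour HOXD10 at 7.90, 6.95 and 8.37 RPKM in wild type and 14.56, 13.73 and 12.17 in knockout. Neither gene's groups overlapped, and the changes were 0.79 and 0.73 (limma, adjusted p = 3.43e-05 and 0.000179). HOXD9, the next gene of the cluster, was at 2.31 and 1.51 RPKM with a change of -0.39 and was not called. HOXD8 was higher by 0.33, a call lost without knockout replicate 1 or 2 or wild-type replicate 2 or 3 (limma, adjusted p of 0.0598 to 0.121).

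The positions of called genes were then described, with chromosomes and gene order taken by gene ID for 96.7% of genes tested. In 8 places 3 or more neighbouring tested genes were called in the same direction, 5 higher and 3 lower. The lower runs were IFIT2, IFIT3 and IFIT1 on chromosome 10, H19, IGF2 and the transcript that overlaps it (ENSG00000240801) on chromosome 11, and SERINC2, TINAGL1, PEF1 and COL16A1 on chromosome 1. Within the last run COL16A1, a collagen, fell from 55.79, 53.21 and 51.90 RPKM to 25.65, 23.79 and 27.87 (-1.03, limma, adjusted p = 5.83e-06), and PEF1, a calcium-binding adaptor, from 71.29, 70.90 and 68.24 RPKM to 50.25, 44.59 and 43.40 (-0.60, limma, adjusted p = 2.17e-05). The higher runs were HOXD11, HOXD10 and HOXD-AS2 on chromosome 2, LRP11, RAET1E and RAET1G on chromosome 6, ANKMY2, BZW2 and TSPAN13 and also GARS1, MINDY4 and LSM5 on chromosome 7, and MTUS1, PCM1 and ASAH1 on chromosome 8. RAET1E and RAET1G encode ligands of the natural killer receptor NKG2D and changed by 0.27 and 0.39. Leaving out any single untreated library gave 3 or 4 runs, and 3 were found in a fit of the untreated libraries alone.

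Chromosome 7 stood apart from the other chromosomes. Of its 597 genes tested, 51 were higher (8.54%, against 2.61% on all other chromosomes together) and 8 lower (1.34%). It held 13.6% of all higher calls, its median change was 0.096 and 74.0% of its genes were above 0. On the other 22 chromosomes compared, 0.0% to 5.9% of genes were higher, the medians were -0.04 to 0.063, and at most 69.2% of genes were above 0. With median-of-ratios scaling the chromosome 7 median was 0.076, and those of the others were -0.059 to 0.043. The count of 51 became 23 or 33 without wild-type replicate 2 or 3, 32 or 31 without knockout replicate 1 or 2, and 13 in a fit of the untreated libraries alone. ASNS, CYP51A1, INSIG1, EGFR and CBX3, named above among the higher genes of their lists, lie on this chromosome. The part of a chromosome-wide shift in those results was not tested, and the genotype and the line cannot be told apart. Of the 24 genes with the largest differences, 6 lie on the X chromosome: NALF2, ARMCX1 and MPP1 were higher and GPR50, CSAG1 and MID2 lower. On the X chromosome as a whole 20 of 395 genes were higher (5.06%) and 7 lower (1.77%), with a median of 0.019.

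**Figure D4:**
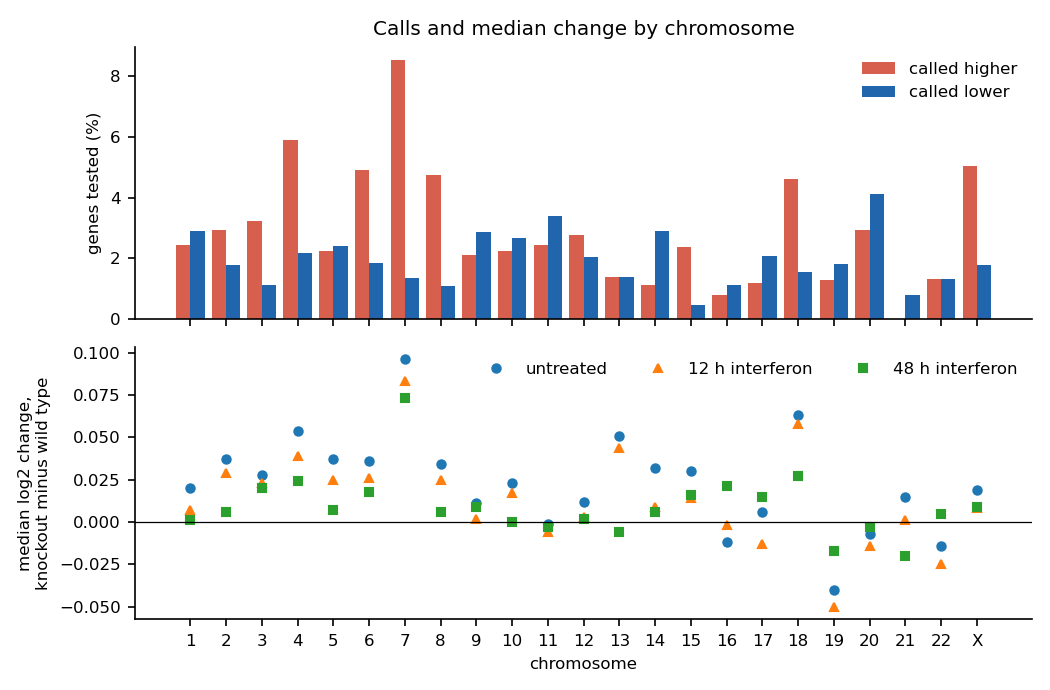
Percent of tested genes called higher or lower in untreated knockout cells on each chromosome (upper panel, bars), and the median log2 change of its tested genes untreated and after 12 and 48 h in interferon (lower panel, points). Chromosome 7 has the highest share of higher calls, 8.54%, and the highest median at each time, 0.096, 0.083 and 0.073.

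The same lines were compared again in the libraries from 12 and 48 h of interferon. The means compared share no library with the untreated comparison. The fit of all 18 libraries gave each gene a single spread for every time, so calls at different times are not independent. Knockout and wild type differed in 481 genes at 12 h (3.62% of genes tested) and 556 at 48 h (4.19%). Of the 650 genes called in untreated cells, 280 were called in the same direction at 12 h, which is 43.1% of the untreated calls and 58.2% of the 12 h calls. At 48 h 334 were, which is 51.4% and 60.1%. No gene was called in opposite directions. The change had the same sign for 94.0% of the 650 at 12 h and 96.0% at 48 h, against 66.3% and 62.9% of all genes tested. Fits of the 6 libraries of each time alone called 213 and 250 genes, and leaving out knockout or wild-type replicate 1 at 12 h gave 315 or 311.

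The genes with the largest untreated differences mostly differed at the later times as well. Of the 24, 21 were called in the same direction at 12 h and 22 at 48 h. For all 650 untreated calls the shares were 43.1% and 51.4%. Of all genes tested, 3.62% and 4.19% were called in either direction. The 24 were chosen for large untreated changes, which favoured their calls at other times. FUCA2 differed by 3.55 and 3.86 at 12 and 48 h, TAF7 by 1.01 and 0.93, PODXL2 by -2.27 and -2.25, VIM by -0.46 and -0.57 and EPCAM by 0.46 and 0.48. The 224 genes called at all 3 times had a median size of 0.60 in untreated cells. The 260 genes called in untreated cells alone (40.0%) had a median size of 0.29. For 8 of them the difference between times itself passed the test at 12 or 48 h. Of all genes tested, 0.0753% and 0.0828% passed at those times. The same libraries chose the 260 genes, so a difference between times was favoured in advance.

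Counts for some lists were not alike across times, which was not tested as such. Of the cholesterol list 1 gene was called higher at 12 h and 0 at 48 h, and of the ATF4 list 2 and 5, where 1.6% and 2.03% of all genes tested were higher. Of the 20 p53 targets 8 were called lower at 12 h (median -0.24) and 2 at 48 h (median -0.17). Of all genes tested 2.02% and 2.16% were lower at those times. HMGCS1 changed by 0.49 and 0.24 and ASNS by 0.33 and 0.54 at 12 and 48 h. No gene of these 3 lists had a called difference between times.

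Among the 16 interferon-stimulated genes that were lower in untreated cells, 4 were lower at 12 h and 7 at 48 h, where 2.02% and 2.16% of all genes tested were lower. The difference between the untreated and the treated comparison was itself called for 7 of them at 12 h and 8 at 48 h, where all genes tested gave 0.0753% and 0.0828%. IFIT1 went from -1.44 untreated to 0.00 and -0.31, IFI44 from -1.43 to 0.04 and -0.13, and ISG15 from -1.36 to -0.35 and -0.18. HERC5 was lower at all 3 times, at -1.07, -0.40 and -0.54. These comparisons with the untreated state share the untreated libraries. The same libraries chose the 16 genes, so a shift towards 0 was favoured in advance.

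**Figure D5:**
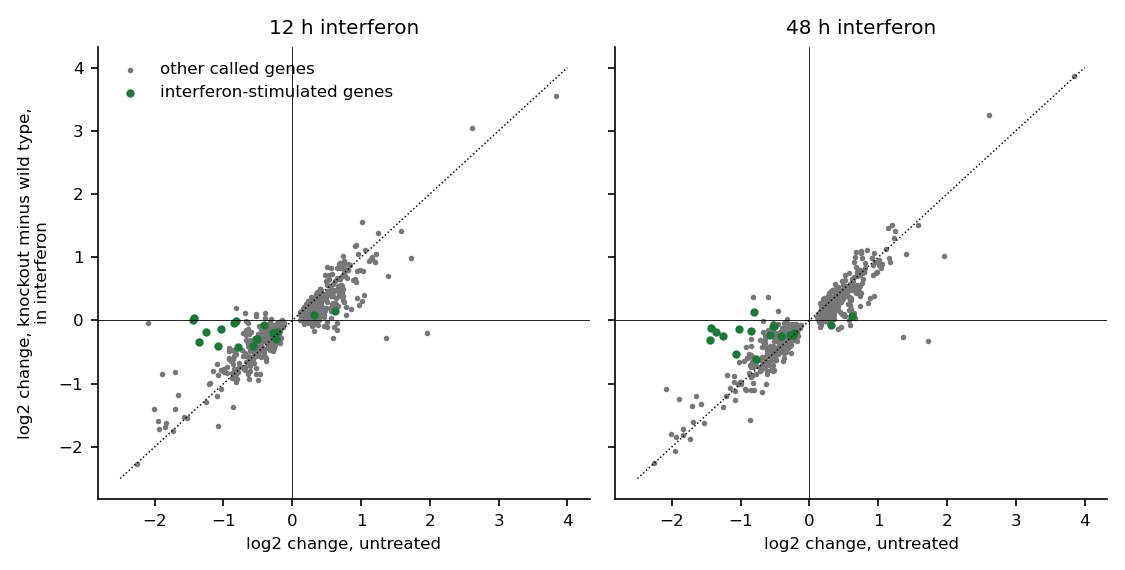
Log2 change, knockout minus wild type, for the 650 genes called in untreated cells: untreated on the horizontal axis, 12 h (left) and 48 h (right) in interferon on the vertical axis, with a dotted line of equal change. Most points keep their sign (94.0% and 96.0%), while several interferon-stimulated genes, in green, lie near 0 on the vertical axis.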

How the data were processed

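The authors deposited 1 table of RPKM values for 16472 genes and 18 libraries. The submitters' processing notes name cutadapt, STAR 2.6.1, RSEM 1.3.0, limma 3.50.3 and hg19, with no order or role. The gene filter, the annotation, the treatment of mouse reads and the reads that made up each total are not given in the sources used here.

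Values were transformed to log2(RPKM + 1), which understates changes of low genes. The 13280 genes that reached 1 RPKM in 3 or more of the 18 libraries were tested. A cell-means model of all 18 libraries was fitted in limma 3.58.1 (R 4.3.3), with variances moderated towards a trend on the mean. Two-sided p-values were corrected for all genes tested by the Benjamini-Hochberg method, threshold 0.05. Simulated data for knockout against wild type at 0 h (13280 genes) had normal noise, drawn independently for each gene and library. In them the fit recovered 62% of changes of 0.5 and 94% of changes of 1 on the log2 scale. There, 4.9% of calls were false. Such noise matches the model, so these shares cannot give the error rate of the real calls. Read totals are unknown. Relative depth came from 613 genes with low values, 84.7% of which lay within 0.15 of a whole read, so no counting interval is given.

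Named genes were SP100, the 12 largest changes in each direction among called genes without overlap that have a symbol, called or defining members of gene lists, and members of neighbouring runs. The lists and the comparison were chosen with earlier results of these data known. Some list members that entered the fit and the counts are not reported here. Gene IDs were given symbols from a reference table (14576 matched), chromosomes and gene order from GENCODE release 29, and promoters from RefSeq on GRCh38.p14. Alternatives were a pseudocount of 0.1, no filter, median-of-ratios scaling, a filter at mean RPKM 5, the libraries of a comparison alone, no variance trend, a replicate block and the omission of each library.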

Additional observations from a re-analysis of the deposited data

Results flagged for a closer look

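For 14 genes the difference between knockout and wild type was not the same in untreated cells and in interferon, by a test of the difference itself (limma, adjusted p under 0.05). Positive values mean that the knockout stood higher, relative to wild type, in interferon than untreated. At 12 h they were 1.47 for IFI44, 1.45 for IFIT1, 1.06 for OASL, 1.01 for ISG15, 0.89 for IFIT2, 0.81 for IFIT3, 0.67 for HERC5 and 0.58 for MX1, all listed interferon-stimulated genes, and 0.89 for IGF2 and 0.59 for INHBA. At 48 h they were 1.3 for IFI44, 1.18 for ISG15, 1.13 for IFIT1, 1.01 for OASL, 0.94 for DDX60, 0.90 for IFIT2, 0.69 for IFIT3, 0.54 for MX1 and 0.42 for IFITM3. OAS2 and USP18, the genes that were higher in untreated knockout cells, had values of -0.56 and -0.38 at 48 h. MX1 was the only one of these that was not called in untreated cells. At 0.317 and 0.223 RPKM untreated it passed the filter through the interferon libraries, and its call was lost with a pseudocount of 0.1 at both times (0.83 and 0.79, limma, adjusted p = 0.133 and 0.243) and at 48 h in a fit of the libraries of the comparison alone (limma, adjusted p = 0.0624).

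Several of these calls were lost when an untreated library was left out. At 12 h this held for HERC5 (0.61 to 0.72) and IGF2 (0.85 to 0.94) with any of the 6, for INHBA (0.54 to 0.59) with knockout replicate 1 or 2 or wild-type replicate 2 or 3, and for ISG15 (0.88 to 1.02) with replicate 1 or 2 of either genotype. At 48 h it held for IFITM3 (0.41 to 0.45) with any of the 6, for USP18 (-0.40 to -0.34) with any but knockout replicate 3, for DDX60 (0.85 to 0.95) with knockout replicate 1 or 2 or wild-type replicate 1, and for OAS2 (-0.56, limma, adjusted p = 0.0514) with wild-type replicate 1.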

How the results depend on the processing

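Of 103 genes named with a call in untreated cells, 58 kept it in every alternative that tested them (44 in 13 and 14 in 12, since a filter at mean RPKM 5 removed those), 45 lost it in at least 1 and 0 reversed. A fit of the untreated libraries alone was the only alternative that ended the calls of USP18, DDX60, RIGI, IFITM1, IRF9, PSMB9 and HLA-B. The same held for EPGN, CLDN1, LAMB3, COL17A1, DSG3, CYP51A1 and FDFT1. Fits of the libraries of a comparison alone moved the counts most: 306 genes called (148 higher, 158 lower), 45 list members, 10 lower interferon-stimulated genes, 3 cholesterol genes, 13 higher chromosome 7 genes, 3 neighbouring runs, 213 genes at 12 h and 250 at 48 h. The count of at least 2-fold changes was 107 with a pseudocount of 0.1 and 21 at a mean RPKM of at least 5, and the runs were 4 without a filter. Among SP100 and the 24 genes, the differences between times called at 12 h went from 2 to 1 with the libraries of the comparison alone, median-of-ratios scaling, the filter at mean RPKM 5 or a pseudocount of 0.1, and those at 48 h from 1 to 2 with variances without a trend. Leaving out 1 library gave 390 to 580 genes called (199 to 300 higher, 182 to 280 lower), 46 to 51 of at least 2-fold, 63 to 75 list members, 13 to 16 lower interferon-stimulated genes, 5 to 8 cholesterol genes, 23 to 40 chromosome 7 genes, 3 to 4 runs, 311 to 448 genes at 12 h and 375 to 424 at 48 h, and 1 difference between times at each time. Deviations of same-numbered untreated libraries were hardly correlated across genes (r of 0.027, -0.061 and -0.057 for the 3 numbers). Noise of single genes can hide a shared step, so this cannot decide whether the numbers pair the libraries. A replicate block gave 533 called genes (290 higher, 243 lower), 15 lower interferon-stimulated genes, 5 runs and 1 difference between times at 12 h. The cause of these changes was not tested.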
